A study of Mus musculus with 3 samples.

Results

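The genes described here encode proteins of the cytosolic ribosome and were followed in mouse pigment cells on 3 arrays. A gene was included when its probe sets carried a single gene symbol made of Rpl, Rps or Rplp and a number. At most the one added letter a, l, x or y was allowed. This leaves out the S6 kinase genes and the pseudogenes whose symbols end in -ps. The rule found 98 probe sets of 45 genes, 24 of the large subunit and 21 of the small subunit, among 34958 probe sets of 18194 genes with a single symbol. The assembly GRCm38.p6 has 80 protein coding genes with such symbols, and 44 of them were found. The other 36 have no probe set of a single symbol here. The remaining member, Rps4l, is annotated there as a transcribed pseudogene.

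The cells were Melan-a NRAS61K cells, mouse melanocytes with the NRAS61K oncogene, grown with dialyzed serum and treated with doxycycline at 1 µg/ml for 6, 14 or 28 days. Every array thus shares the oncogene and the drug, 1 array stands for each time, and no untreated array was analysed here. By its design text the series has 4 samples, and the array not among these 3 is not analysed here. Its title concerns tumorigenic cells made from senescent ones, so the comparisons ask how the genes of the ribosome stood as treatment went on. The labels do not say what drives the oncogene, whether the line is 1 clone, or whether cultures were pooled. A single array per time leaves the variation from culture to culture unmeasured, so differences carry no p-value and no replicate check.

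A ribosome is built from ribosomal RNA and single copies of most ribosomal proteins, in a small subunit that reads the messenger RNA and a large subunit that joins amino acids. Messenger RNAs of ribosomal proteins are among the most abundant in growing cells. Most start with a run of pyrimidines, the 5′ terminal oligopyrimidine (TOP) motif, through which mTOR signalling controls their translation. Some ribosomal proteins that are not built into ribosomes bind MDM2 and thereby stabilise p53, so ribosome supply is tied to arrest and senescence.

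Values are log2 signals as the authors deposited them. The base of 2 was inferred, and folds assume it. Sorting the 3 columns gave identical lists, and each difference is therefore relative to the other probe sets of the array. For each gene the brightest of its probe sets was used, and a gene counted as detected above 22.74, 22.59 and 22.78 at days 6, 14 and 28, a limit set by the 90th percentile over 62 genes silent in pigment cells, with 89 probe sets. Genes above this background were 11285, 11515 and 11328. Of 9 melanocyte markers, 7 lay above it on each array, while Tyr and Kit lay below it on all 3. The 7 had a median difference from day 6 of 2.43 at day 14 and 2.13 at day 28. All 7 were higher than at day 6 at day 14. At day 28, 5 were higher, while Pmel differed by -0.02 and Tyrp1 by -0.11. Of other cell types, markers above the background were 4 of 6 for fibroblasts, 4 of 6 for macrophages and leukocytes, 2 of 4 for keratinocytes, 1 of 2 for Schwann cells and glia and 1 of 3 for endothelial cells on each array. Among them Ptprc, Itgam, Pecam1 and Kdr lay below it throughout, while Cdh5, an endothelial cadherin, had 23.70, 25.85 and 27.93. The macrophage and leukocyte markers above it had no common direction. Lyz2, a lysozyme, differed from day 6 by 2.61 at day 14 and 2.74 at day 28, Cd68 by -1.12 and 0.89, Adgre1 by -0.26 and -0.13 and Csf1r by -0.03 and -0.31. The part of these differences in the ribosomal protein values was not tested, and in bulk RNA fewer cells of a type cannot be told apart from less RNA per cell.

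Of the 45 genes, 42 lay above the background on all arrays and 3 on none. The median signal over all 45 was 29.60, 29.20 and 29.41 at days 6, 14 and 28, near the upper end of a scale that stopped at 30.59. The brightest probe set of 33 genes averaged 29 or more. Brightness depends on the probe as well as on the transcript, so genes were not ranked by it. The 3 genes below the background were Rpl3l, the striated muscle paralog of Rpl3, the pseudogene Rps4l, and Rps16, whose only probe set with a single symbol had 18.42, 19.08 and 19.02. The value of Rps16 speaks of that probe set only, since other probe sets of the gene carry several symbols.

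On their brightest probe sets, ribosomal protein genes mostly stood lower at both later times than at day 6, most of them lowest at day 14, with small differences. Their median log2 difference from day 6 was -0.26 at day 14, where all genes described had -0.03, and -0.15 at day 28, where all genes had 0.01. As folds these medians are 1.19 and 1.11 lower. Both later times were below day 6 in 35 members. Of 42 members, 35 had their highest value at day 6 (83.3%, against 41.5% of 10766 genes above the background on all arrays). The lowest value was at day 14 in 34 members, at day 28 in 4 and at day 6 in 4. The share with the lowest value at day 14 was 81.0%, against 34.6% of all those genes.

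**Figure D1:**
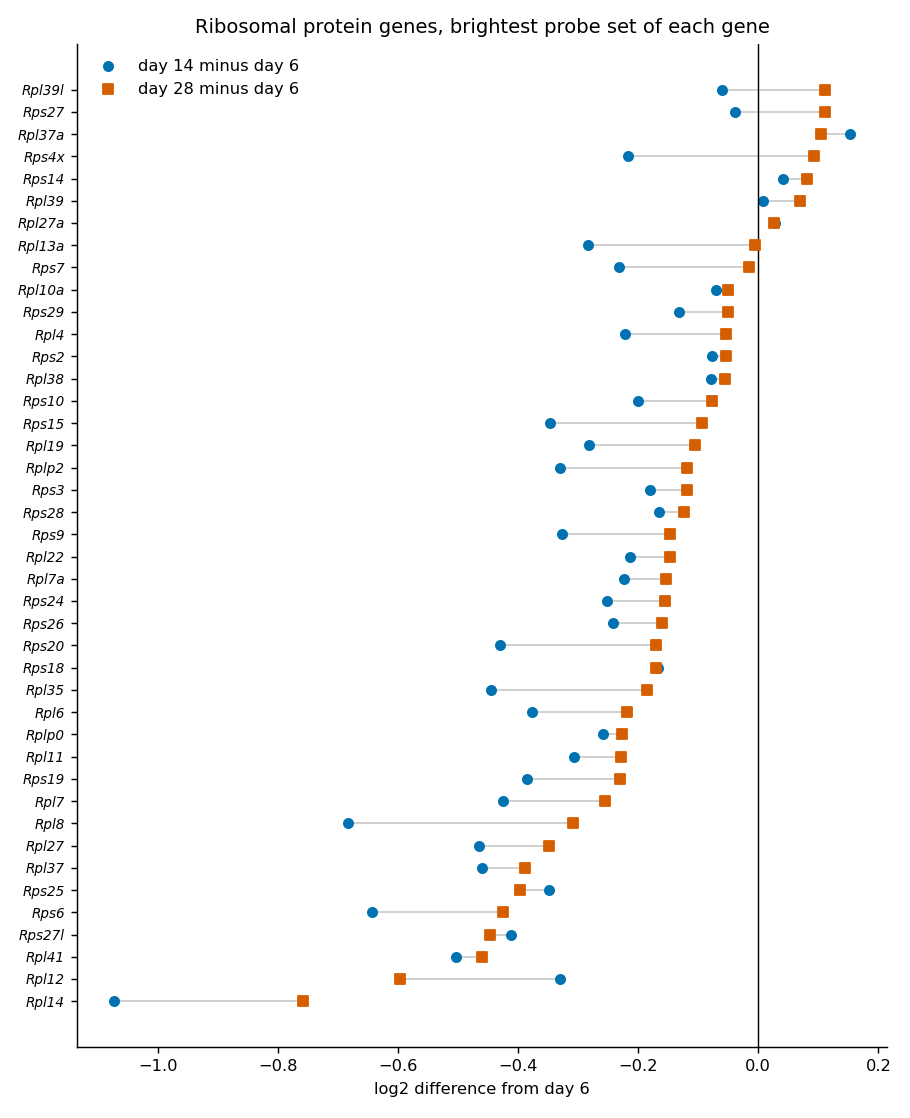
Log2 difference from day 6 (horizontal axis) of the 42 ribosomal protein genes above the background (rows) at day 14 (circles) and day 28 (squares), 1 array per time. Most circles lie left of the squares and both lie left of 0, and the differences run from -1.07 for Rpl14 at day 14 to 0.15 for Rpl37a at day 14.

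Day 14 against day 6 gave the clearest difference. Of the 42 genes, 38 were lower at day 14 and 4 higher, where 52.6% of 11825 genes described were lower and 47.3% higher. The spread of the members was narrow, with the central 50% between -0.38 and -0.17, while that of all genes ran from -0.38 to 0.32. Accordingly 3 members were at least 1.5-fold lower, beside 14.3% of all genes, and 0 at least 1.5-fold higher, beside 13.5%. The count at 1.2-fold was 20 lower, beside 32.6%, and 0 higher, beside 28.2%. Only Rpl14 was at least 2-fold lower, beside 3.91% of all genes, and 0 were 2-fold higher, beside 5.45%. The shares of members past these folds lay below those of all genes, apart from the 1.2-fold lower one, and the share below 0 lay above. The measure of spread used here is the disagreement between probe sets of 1 gene on the same arrays. It covers neither culture nor any error that the probe sets of an array share. Differences in the transcripts that probe sets detect can enter it. Among 66 probe sets of 19 members the SD of this disagreement was 0.20. Of the 42 genes, most of them outside those 19, 29 were lower by more than that. Over all 4829 genes with several probe sets above the background the SD was larger, at 0.30. The share of all genes lower by more than 0.20 is not given here, so the 29 cannot be set beside it.

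Rpl14, a large subunit protein, gave the lowest difference. Its probe set had 25.81, 24.74 and 25.05 at days 6, 14 and 28, so it was 2.10-fold lower at day 14 than at day 6 and 1.69-fold lower at day 28. Rpl8, which lies near the catalytic centre of the large subunit, had 29.60, 28.91 and 29.29, and lay 1.61-fold below day 6 at day 14 and 1.24-fold at day 28. Rps6, the small subunit protein phosphorylated by S6 kinases, had 25.55, 24.91 and 25.13, and was 1.56-fold lower at day 14. Rpl41, the shortest ribosomal protein, had 28.96 at day 14 against 29.47 at day 6, a difference of -0.50. Rpl27 had 29.13 at day 14 against 29.59 at day 6, a difference of -0.47. These 5 members were the lowest of this comparison, and all 5 stayed below their day 6 value at day 28.

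The 5 highest members at day 14 were close to their day 6 values. Rpl37a, a zinc finger protein of the large subunit, had 29.59, 29.74 and 29.69 at days 6, 14 and 28. Rps14, whose loss in human marrow leads to anaemia, had 30.00, 30.04 and 30.08. Rpl27a had 25.23, 25.25 and 25.25, and Rpl39, a small protein at the exit tunnel, had 27.95, 27.96 and 28.02. Rps27 had 28.60, 28.56 and 28.71. When arrays were aligned on their hybridization controls, 1 member lay above 0 at day 14 in place of 4. That alignment moved all genes alike by -0.08, and the median of all genes was then -0.12. The median of the members stayed 0.22 below that of all genes, so the lower count reflects the common shift.

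Day 28 against day 6 gave mostly the same direction, with smaller differences on the brightest probe sets. Of 42 members, 35 were lower and 7 higher, where 49.3% of 11742 genes were lower and 50.6% higher. At least 1.5-fold lower were 2 members, Rpl14 and Rpl12, beside 12.2% of all genes, and none was 1.5-fold higher, beside 15.7%. At 2-fold the counts were 0 lower and 0 higher, beside 4.04% and 6.57%, and at 1.2-fold 9 lower and 0 higher, beside 28.6% and 31.3%. The median was -0.15 for 23 large subunit genes and -0.12 for 19 small subunit genes, and at day 14 these medians were -0.28 and -0.23, so the subunits were close in both comparisons on the brightest probe sets. On probe sets without the endings _x_at, _s_at and _a_at, the small subunit median was -0.54 at day 14 and -0.41 at day 28, beside -0.33 and -0.28 for the large subunit. Over both subunits the medians on those probe sets were close, -0.38 at day 14 and -0.35 at day 28. On probe sets with a mean under 28 they were -0.39 and -0.40. The smaller difference at day 28 thus depends on the choice of probe sets. The SD between probe sets of 1 member was 0.23 for day 28 against day 6, and 0.32 over all genes. Within 0.23 lay 32 members, so most single differences are smaller than the disagreement between probe sets. The share of all genes within it is not given here.

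Rpl12, a protein at the base of the stalk, had 26.77, 26.44 and 26.18 at days 6, 14 and 28, and was 1.51-fold lower at day 28. Rpl41 had 29.47, 28.96 and 29.01 and was 1.38-fold lower. Rps27l, a paralog of Rps27 and a p53 target in human cells, had 29.38, 28.97 and 28.94, 1.36-fold lower at day 28. Rps27 itself differed by 0.11. Rps6 was 1.34-fold lower, Rps25 1.32-fold, Rpl37 1.31-fold, Rpl27 1.27-fold and Rpl7 1.19-fold. The 7 members above 0 were Rpl39l, Rps27, Rpl37a, Rps4x, Rps14, Rpl39 and Rpl27a, with differences between 0.03 and 0.11. Rpl39l, the testis paralog of Rpl39, had 23.04, 22.98 and 23.15, near the background. Just below 0 stood Rpl13a at -0.01, Rps7 at -0.02 and Rpl10a at -0.05. The 8 members Rpl4, Rpl6, Rpl7a, Rpl19, Rpl35, Rps2, Rps10 and Rps26 lay between -0.22 and -0.05 at day 28 and between -0.44 and -0.08 at day 14.

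The stretches around the annotated start are printed for the 3 lowest and the 3 highest members of day 28 against day 6, to set the start-site letters of members at the opposite ends beside each other. Each runs from 60 bases before the start to 20 bases from the start onward, from RefSeq annotation of GRCm38.p6, and is read 5′ to 3′ on the strand of the gene. Capitals mark a pyrimidine run of at least 5 bases that holds, within 5 bases of the start, a C followed by 4 more pyrimidines. Rpl14 is on chr9:120571457-120571536 (+), Rpl12 on chr2:32961652-32961731 (+) and Rpl41 on chr10:128549149-128549228 (-). Rpl39l is on chr16:10170168-10170247 (+), Rps27 on chr3:90213629-90213708 (-) and Rpl37a on chr1:72711200-72711279 (+).
Rpl14: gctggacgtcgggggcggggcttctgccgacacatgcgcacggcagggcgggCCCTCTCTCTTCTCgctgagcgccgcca
Rpl12: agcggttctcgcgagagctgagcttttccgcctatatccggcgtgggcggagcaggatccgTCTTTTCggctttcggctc
Rpl41: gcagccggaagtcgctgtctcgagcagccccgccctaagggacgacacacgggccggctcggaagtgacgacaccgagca
Rpl39l: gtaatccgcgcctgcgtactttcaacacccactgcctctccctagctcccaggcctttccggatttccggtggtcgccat
Rps27: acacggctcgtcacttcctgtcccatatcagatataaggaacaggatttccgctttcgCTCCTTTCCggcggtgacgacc
Rpl37a: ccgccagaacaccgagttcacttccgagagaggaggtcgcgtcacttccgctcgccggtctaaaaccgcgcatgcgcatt

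The run was present in Rpl14 (14 bases, the first at position -8), Rpl12 (7 bases) and Rps27 (9 bases), and no match was found in the other 3 windows. It thus occurs among both the lowest and the highest members. Of the 37 detected members with a promoter in the table, 19 (51.4%) had such a run in at least 1 of their promoters, against 19.7% of 27025 genes and 17.1% of 32851 promoters. The search read the strand of the gene only. At day 14 the median difference from day 6 was -0.25 in members with the run and -0.25 in those without it. At day 28 these medians were -0.15 and -0.13. The letters CCGGAAG, the core bound by ETS factors such as GABP, were searched on both strands of the 300-base promoters, a choice made after the values were seen. They were found in 19 of the 37 members (51.4%), against 9.93% of genes and 8.86% of promoters. The members with them had a median of -0.28 at day 14, and those without -0.24. A match describes the letters and not a bound site, and annotated starts can lie some bases from the true one.

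**Figure D2:**
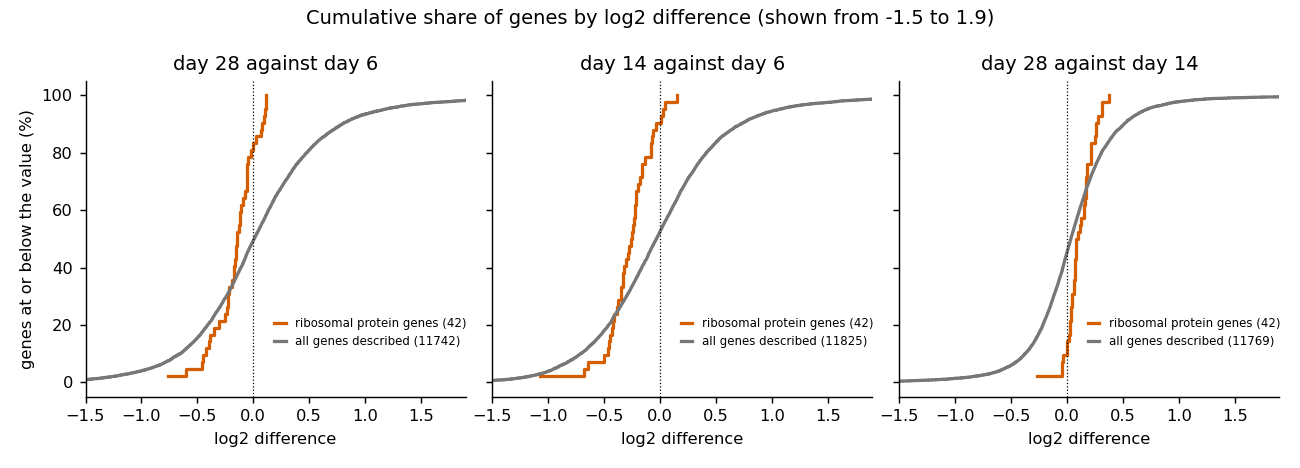
Cumulative share of genes (vertical axis, %) by log2 difference (horizontal axis) for the 42 ribosomal protein genes (orange) and for all genes described (grey) in the 3 comparisons. The orange steps are steeper than the grey curve, with medians of -0.15, -0.26 and 0.09 against 0.01, -0.03 and 0.03.

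Day 28 against day 14 ran the other way. Of 42 members, 36 were higher at day 28 and 6 lower, where 54.6% of 11769 genes were higher and 45.3% lower, and the median was 0.09 against 0.03 for all genes. With arrays centred on the median of the genes above the background, 13 members were lower and 29 higher. The median was then 0.04 for the members and -0.02 for all genes, as this setting moves all genes alike. No member was 1.5-fold apart in either direction, beside 7.6% of genes higher and 4.39% lower, and none 2-fold, beside 2.21% and 1.44%. At 1.2-fold 4 were higher, beside 23.6%, and 1 lower, beside 16.3%. Rpl8 differed by 0.38, Rpl14 by 0.31, Rps4x by 0.31, Rpl13a by 0.28 and Rps20 by 0.26. Of these, Rps4x, a small subunit protein of the X chromosome, had 29.76, 29.54 and 29.85, and Rpl13a, often used as a reference gene, had 30.25, 29.96 and 30.24. Rps20 had 30.34, 29.91 and 30.17. The lowest were Rpl12 at -0.27, Rpl37a and Rps25 at -0.05 each, Rps27l at -0.04 and Rps18, which was close to 0. The SD between probe sets of 1 member was 0.12 here, with 19 members higher by more than that and 1 lower. Over all genes the SD was 0.24, and the share of all genes past 0.12 is not given here. Both this difference and that of day 14 against day 6 use the day 14 array, with opposite sign, and a low value on that array alone would give the 2 signs seen here.

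Of the 42 members, 34 were lower at day 14 and then higher at day 28, and 31 of those were still below day 6 at day 28. Both steps were downward in 4 members, Rpl12, Rps18, Rps25 and Rps27l, and upward in 2, Rpl39 and Rps14. Rpl27a and Rpl37a were higher at day 14 and then lower.

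Genes that stand for parts of the ribosome gave like values. Of the stalk, which recruits elongation factors, Rplp0 had 30.14, 29.88 and 29.91 at days 6, 14 and 28. Rplp2 had 30.18, 29.85 and 30.06. Both were lowest at day 14, as most members were. Rplp1 has no probe set of a single symbol. Rpl11, which with Rpl5 and 5S RNA can bind MDM2, had 29.42, 29.11 and 29.19. Rps19, a gene of Diamond-Blackfan anaemia in humans, had 29.48, 29.09 and 29.25. Rps3, at the entry site of messenger RNA, had 29.73, 29.55 and 29.61, and Rpl38, which in mice affects translation of Hox transcripts, had 30.25, 30.17 and 30.20. Rps18, often used as a reference gene, had 30.05, 29.88 and 29.88. The differences of Rps3, Rpl38 and Rps18 on these probe sets were no larger than the SD between probe sets of 1 member. Dimmer probe sets of Rps18 and Rps3 gave larger ones. On the dimmest above the background on all arrays, Rps18 differed from day 6 by -0.68 at day 14 and -0.76 at day 28, and Rps3 by -0.68 and -0.56. The mean over all probe sets of Rps18 differed by -0.44 at day 14 and -0.41 at day 28.

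In genes whose probe sets lay far apart in signal, the brightest mostly gave smaller differences from day 6 than the dimmest. Of 19 members with several probe sets above the background, 10 had a gap of 2 or more on the log2 signal scale between the brightest and the dimmest. At day 14 their median difference from day 6 was -0.63 on the dimmest and -0.27 on the brightest. At day 28 these medians were -0.49 and -0.15, and the dimmest gave the larger size in 8 of 10 genes in either comparison. Rps3 differed by -0.68 at day 14 on its dimmest probe set and by -0.18 on its brightest. Rps10 differed by -0.69 and -0.20, Rpl13a by -0.81 and -0.28, and Rps20 by -0.91 and -0.43. In the 9 genes with a gap under 2 the medians from day 6 lay closer together, and the counts differed between comparisons. Their medians were -0.27 on the dimmest and -0.23 on the brightest at day 14, with the larger size on the dimmest in 2 of 9 genes. At day 28 these medians were -0.06 and -0.09, with the larger size on the dimmest in 6 of 9 genes. Between day 28 and day 14 the medians were 0.11 on both in the genes with a gap of 2 or more. The dimmest gave the larger size there in 7 of 10 of them, and in 6 of 9 genes with a gap under 2. The split by gap was chosen after the values were seen. Dim and bright probe sets can also differ in the transcripts they detect, and what sets the difference was not tested.

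**Figure D3:**
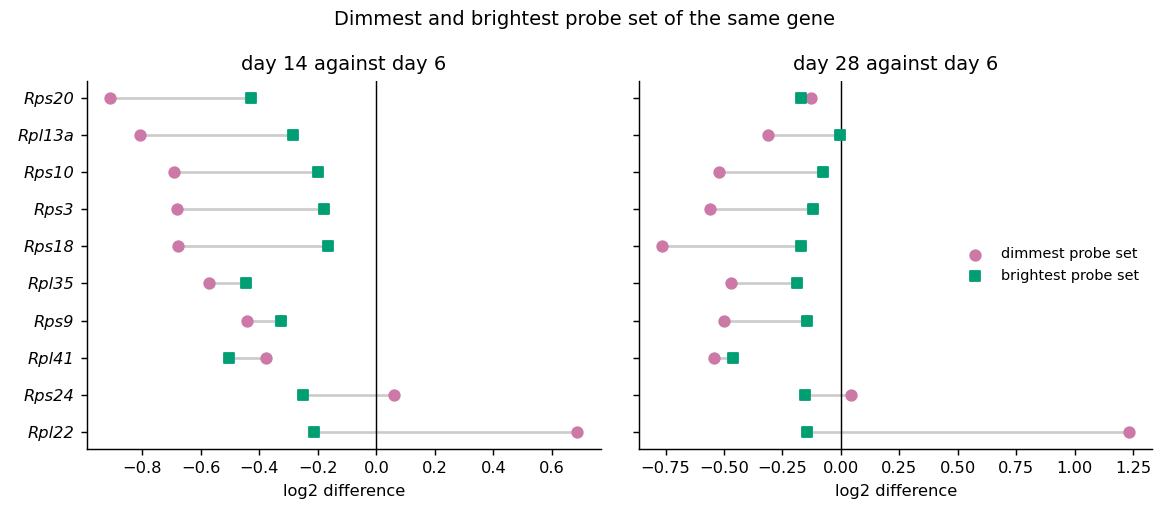
Log2 difference (horizontal axis) on the dimmest (circles) and brightest (squares) probe set of the 10 ribosomal protein genes (rows) whose probe sets differ in signal by 2 or more, at day 14 and day 28 against day 6. In 7 of the 10 genes of each comparison the circle lies left of the square, and Rpl22 runs the other way, with 1.23 on the dimmest probe set at day 28.

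Rpl22, which also binds RNA outside the ribosome, was the member whose probe sets disagreed most. Its brightest had 29.98, 29.76 and 29.83 at days 6, 14 and 28, its second 28.92, 28.47 and 28.64, and its dimmest 26.05, 26.74 and 27.28. The dimmest differed by 1.23 at day 28 from day 6, while the others differed by -0.15 and -0.28. Averaged over the 3, Rpl22 differed by 0.27. Which transcripts the dimmest one detects is not known here. Probe sets also differed in sign for day 28 against day 6 in Rpl13a, Rpl37a, Rps15, Rps24, Rps28 and Rps29, where all differences on probe sets above the background lay between -0.31 and 0.16.

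Names of 40 of the 98 probe sets end in _x_at and of 3 in _s_at, by which the array maker marks probes that can detect other transcripts, such as those of processed pseudogenes. Another 26 end in _a_at, for several transcripts of a gene, and 29 have none of these endings. With the 29 alone, 21 genes were described, and the median difference from day 6 was -0.38 at day 14 and -0.35 at day 28. The direction was the same, with 18 of 21 lower at day 14 and 15 of 21 lower at day 28. These medians lay closer together than those on the brightest probe sets, -0.26 and -0.15. A further 110 probe sets carry several symbols of which at least 1 fits the rule, and they are not named here. Of 106 described for day 14 against day 6, 102 were lower, with a median of -0.29. At least 1.5-fold lower were 15 of the 106, a share near the 14.3% of all genes. At day 28 their median difference from day 6 was -0.13, with 86 of 106 lower. Between day 28 and day 14 it was 0.18, with 95 of 105 higher at day 28.

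The ranks at the top of the arrays were read from the same values, so they are no separate evidence for the order of times. Ribosomal protein probe sets held 52 of the 100 brightest places at day 6, 23 at day 14 and 44 at day 28. Members took 21, 13 and 20 of these places and probe sets with several symbols the other 31, 10 and 24. The hundredth value was 29.88 on each array. Since normalization gave every array the same set of values, a probe set can only lose such a place to another one.

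**Figure D4:**
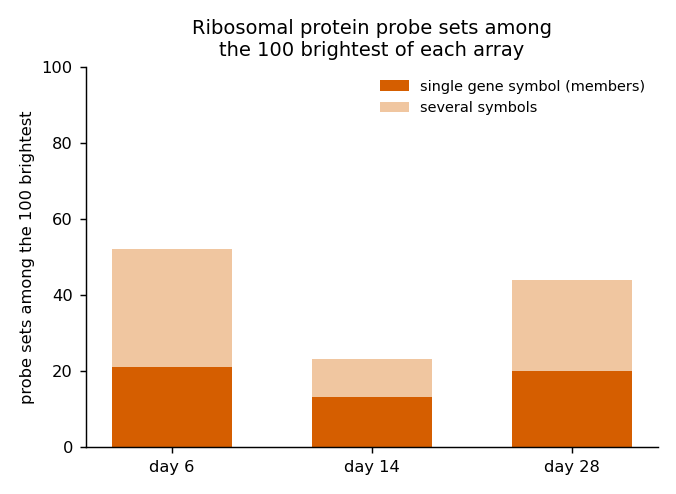
Number of ribosomal protein probe sets among the 100 brightest probe sets of each array (vertical axis) at days 6, 14 and 28, split into those with a single gene symbol (dark) and those with several (light). The total is 52, 23 and 44.

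Other genes of the same signal range were nearer to an even split. Of 33 members with a signal of 29 or more, 31 were lower at day 14 than at day 6, with a median of -0.25. Of 256 other genes in that range, 110 were lower (43.0%), with a median of 0.06. At day 28, 30 of 33 members and 121 of 256 other genes (47.3%) were below day 6, with medians of -0.15 and 0.04. Compared with day 14, 30 of 33 members and 97 of 256 other genes were higher at day 28, with medians of 0.10 and -0.05.

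Ribosomal proteins whose symbols fall outside the rule gave values of the same kind. Rpsa, the laminin receptor protein of the small subunit, had 29.74, 29.23 and 29.41 at days 6, 14 and 28. Fau, whose product is cleaved to a small subunit protein, had 29.65, 29.39 and 29.65. Rpl22l1, the paralog of Rpl22, had 28.23, 27.90 and 28.01. Rpl7l1 had 26.89, 26.05 and 26.52, 1.79-fold lower at day 14. All 4 were lower at day 14 than at day 6.

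The 4 related lists of translation and ribosome making had medians below 0 as well. On the brightest probe sets they lay further from 0 than that of the members at day 14. The member median there was -0.33 over every probe set and -0.38 without the endings _x_at, _s_at and _a_at. Both lie past the -0.32 of the elongation factors and other TOP genes. No list median under those choices is given here. Beside the counts of the lists stand the shares of all genes lower than at day 6. At day 14 these were 52.6% by sign, 14.3% at 1.5-fold and 3.91% at 2-fold. At day 28 they were 49.3% by sign and 12.2% at 1.5-fold. Of 19 elongation factors and other TOP genes, 18 were lower at day 14, with a median of -0.32, and 3 at least 1.5-fold lower, which is near the share of all genes, and 17 were lower at day 28, with a median of -0.16. Nap1l1, a histone chaperone, differed by -0.80 at day 14 and Eef1d, an elongation factor subunit, by -0.72, while Eif4a2, a helicase, differed by 0.56. Npm1, a nucleolar chaperone, differed by -0.63. All 22 initiation factors were lower at day 14, with a median of -0.48, 6 at least 1.5-fold and 3 at least 2-fold lower, and 20 at day 28, with a median of -0.30. The cap-binding protein gene Eif4e was 2.01-fold lower at day 14, Eif2b3 2.53-fold and Eif1ax 2.03-fold.

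Of 76 mitochondrial ribosomal protein genes, whose products translate the messages of mitochondria, 74 were lower at day 14, with a median of -0.54 and 34 at least 1.5-fold lower. At day 28, 70 were lower than at day 6, with a median of -0.47. Mrpl1 was 2.61-fold lower at day 14. Mrpl35 differed by -0.98, and Mrps10 and Mrps28 by -0.97 each. All 30 genes of ribosome assembly and ribosomal RNA synthesis were lower at day 14, with a median of -0.71 and 21 at least 1.5-fold lower. At day 28, 28 were lower, with a median of -0.77 and again 21 at least 1.5-fold lower. The assembly factor gene Wdr12 was 2.55-fold lower at day 14, Dkc1 2.42-fold and Bysl 2.34-fold. Between day 28 and day 14, 14 of 30 assembly genes were higher at day 28, with a median of -0.02, beside 54.6% of all genes higher. Of the mitochondrial ribosomal protein genes 49 of 76 were higher, with a median of 0.08, beside 36 of 42 cytosolic members. The difference between lists was not tested.

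**Figure D5:**
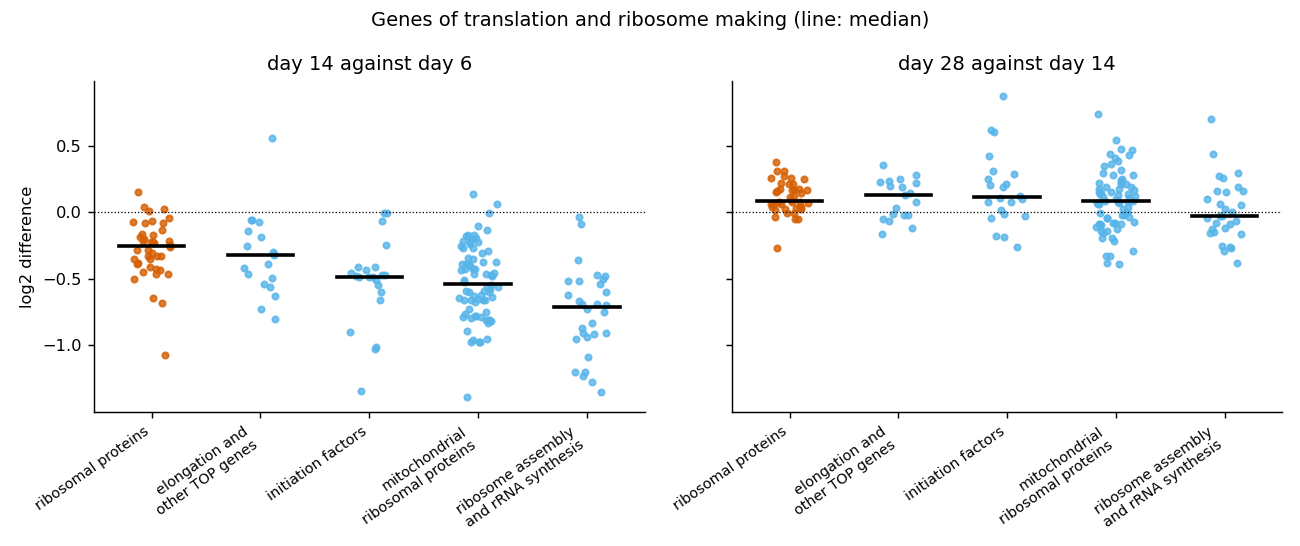
Log2 difference (vertical axis) of each gene (points) of the ribosomal protein genes and of 4 related lists, with the median as a line, for day 14 against day 6 and day 28 against day 14. All 5 medians lie below 0 in the first panel, from -0.26 to -0.71, and between -0.02 and 0.13 in the second.

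Genes of mTOR control showed no common direction. Of 13, 7 were higher and 6 lower at day 14, with a median of 0.17. Eif4ebp1, which blocks the cap-binding protein, had 28.66, 26.90 and 27.82 at days 6, 14 and 28, 3.38-fold lower at day 14. Deptor, an inhibitor of mTOR, had 25.43, 27.09 and 27.27, 3.18-fold higher at day 14. Eif4ebp2 differed by -0.79 and Rheb, which activates mTOR, by -0.39 at day 14. Larp1, which binds TOP messages, had 27.75, 27.47 and 27.50. Of 4 genes around p53, Mdm2 had 26.48, 26.56 and 26.29, and Mdm4 had 25.97, 26.40 and 26.51. The inhibitor gene Cdkn2a, whose products include ARF, was 2.09-fold lower at day 14 than at day 6 and 3.05-fold higher at day 28 than at day 14, and Cdkn1a, a p53 target, had 26.15, 25.59 and 26.31.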

How the data were processed

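The deposited table held log2 values of 45101 probe sets on 3 Affymetrix arrays, made by the authors from biotin-labelled cRNA, per the labels' protocols. The summarization method, the log base and any added constant are not given in the sources used here. Hybridization controls gave slopes of 0.788, 0.805 and 0.803 per log2 unit of concentration at days 6, 14 and 28, from which base 2 was inferred. Their means were 27.45, 27.53 and 27.53. Means of the polyA controls were 23.47, 23.69 and 23.91. The 3′ minus 5′ difference of the Actb control probe sets was 0.58, 0.76 and 0.75. That of the Gapdh control probe sets was -0.24, -0.10 and -0.09. The part of these control differences in the member values was not tested. The sorted columns differed by 0, so the authors' values were quantile normalized.

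Of the probe sets, 34958 had 1 gene symbol in the platform annotation, 932 several, and 9211 were not listed. The probe set with the highest mean stood for a gene, and a gene entered a comparison when either array placed it above the background. Differences were counted by sign and at 1.5-fold and 2-fold (log2 difference of 1). No test was possible with so few arrays, which also limits the precision. The members, lists and rule for named genes were chosen with earlier results of these data known. The rule named the 10 highest and 10 lowest members for day 28 against day 6, the 5 highest and 5 lowest for the others, chosen ribosomal parts and paralogs, members whose probe sets disagreed, and up to 4 genes of each related list. Larp1 was named outside this rule. Alternatives were other choices of probe set, symbol, scaling, background and fold. Promoter sequences came from RefSeq. Calculations used Python 3.11.15, numpy 2.4.6, pandas 2.3.3 and scipy 1.17.1, and the counting was tested on simulated data.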

Additional observations from a re-analysis of the deposited data

How the results depend on the processing

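The median of the ribosomal protein genes kept its sign in each comparison under 10 other settings, of which 2 were chosen after seeing the data. Its difference from day 6 ran from -0.40 to -0.13 at day 28 and from -0.39 to -0.23 at day 14. Between day 28 and day 14 it ran from 0.04 to 0.18. The settings with updated gene symbols, a background at the 75th percentile and values raised to the background left the medians from day 6 unchanged. The 42 members described lay above the background on all arrays, so raising values to it could not move their median. These settings therefore say little about the sign. The value of -0.40 came from the brightest probe sets with a mean under 28, 1 of the 2 settings chosen after seeing the data, with 17 genes, and the cause was not tested. The other used the probe sets with several symbols.

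Counts depend on the units, and no share of all features under the same choice of probe sets is given here. With every probe set as a unit, 74 of 90 were below day 6 and 16 above it at day 28, with 4 lower and 1 higher at 1.5-fold and 1 in each direction at 2-fold. At day 14, 78 were below day 6 and 12 above it, with 12 lower and 1 higher at 1.5-fold. The 12 of 90 lower at 1.5-fold are near the 14.3% of all genes in the main setting. Compared with day 14, 74 of 89 were higher and 15 lower at day 28, with 1 higher at 1.5-fold. With probe sets of several symbols, the counts for the same 3 comparisons were 86 lower and 19 higher, 102 lower with 15 at 1.5-fold and 3 at 2-fold, and 95 higher and 10 lower with 4 higher at 1.5-fold. Without the endings _x_at, _s_at and _a_at, 15 of 21 genes were lower at day 28 and 18 at day 14 than at day 6, 6 of them 1.5-fold, and compared with day 14, 14 were higher at day 28, 1 of them 1.5-fold. Below a mean of 28, 12 and 13 of 17 were lower than at day 6, with 6 at 1.5-fold for day 14, 1 was 1.5-fold higher in each, at day 28 also 2-fold, and 11 stood above day 14 at day 28.

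With probe sets averaged, 1 gene was 1.5-fold above day 6 at day 28, 5 were 1.5-fold below it at day 14, and 1 stood 1.5-fold and 2-fold above day 14 at day 28. Averaging moved the difference of Rps4x at day 28 to 0.97 from day 6 and 1.34 from day 14, since it brings in a probe set below the background. At 1.2-fold, 9 members were lower at day 28 and 20 at day 14 than at day 6, and 4 were higher and 1 lower at day 28 than at day 14. With equal hybridization controls 1 gene was higher at day 14 than at day 6. With equal medians of the genes above the background 13 were lower at day 28 than at day 14. Both settings move all genes of an array alike, so the members kept their distance from all genes. No paired analysis was possible because each time has 1 array, so no replicate could be left out either.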
